A study of Arabidopsis thaliana with 47 samples.

Results

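Cultured leaf protoplasts of Arabidopsis thaliana Columbia-0 that had been treated with MB-3 until Day 6 were compared directly with those treated with yucasin until Day 6. The comparison rests on 6 of the 47 mRNA sequencing libraries of the series, 3 per inhibitor, chosen by their labels as replicates 6, 7 and 8 of each treatment. The study asked how differentiated leaf cells return to division, and the other libraries held leaves, freshly isolated protoplasts and protoplasts from other days and media. Protoplasts, which are cells freed of their walls by enzymes, were isolated from leaves of 23-day-old wild-type plants, embedded in alginate gel and kept in the dark. The medium of all groups described here held thidiazuron, a compound with cytokinin activity, at 176 µg/L and 2,4-D, a synthetic auxin, at 1 mg/L. MB-3 is a butyrolactone that inhibits histone acetyltransferases of the GNAT and MYST families, and yucasin is a triazole that inhibits the YUCCA enzymes of auxin synthesis. Both were given in DMSO from the beginning of culture, at the same concentration per the study's methods. The Day 6 control, given DMSO without inhibitor and also in 3 replicates, is shown beside them. The compounds are not structural relatives and were tested at 1 concentration, and how selective MB-3 is in plants is not well established. Only a small share of the protoplasts divides in this culture, so each library averages dividing and non-dividing cells, and fewer cells of a type and less RNA per cell cannot be told apart.

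Histone acetyltransferases loosen the packing of DNA and favour transcription. Indole-3-acetic acid, the main natural auxin, is made from tryptophan by aminotransferases of the TAA1 family followed by YUCCA flavin monooxygenases. A leaf cell that returns to division first copies its DNA in S phase, under E2F factors, and then expresses genes for mitosis and cytokinesis in the G2/M phase, many of them under MYB3R factors. A direct comparison asks by how much the mRNA profiles under the inhibitors differ from each other, which the comparisons of each with the control do not answer.

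The 6 libraries held between 5.07 and 11.58 M mapped reads, the lowest being MB-3 replicate 6. Of 25713 loci listed, 19043 passed the filter on low counts and were tested. Levels are given in CPM, the TMM-scaled counts per 1e+06, where TMM is a scaling that assumes most genes do not differ, and sets of 3 values are in the order of replicates 6, 7 and 8. At the depth of these 6 libraries, 3 counts corresponded to between 0.201 and 0.483 CPM, and lower values cannot be told from 0. Replicate 6 stood apart in each Day 6 group, with the largest values for MB-3. With MB-3 its counts differed from those of replicates 7 and 8 by a chi-square of 25.8 and 34.2 per degree of freedom. These values were 18 and 13.2 with yucasin and 9.88 and 10.3 in the control. Replicates 7 and 8 differed from each other by 6.57 with MB-3, 7.78 with yucasin and 5.42 in the control. The plastid share of counts in MB-3 replicate 6 was 4.72%, against 1.52% and 1.06% in MB-3 replicates 7 and 8 and between 2.03% and 3.13% with yucasin. On the first principal component of the Day 6 libraries, which held 70% of the variance, the MB-3 libraries scored between -29.7 and 9.1, the control libraries between -96.7 and -76.2 and the yucasin libraries between 76.0 and 112.6. On the second component, with 14% of the variance, the MB-3 libraries lay below both other groups. Mesophyll markers, the labelled cell type, were all measured (17 of 17), with a summed level of 847.9 to 1403 CPM with MB-3 and 1213 to 1982 CPM with yucasin. Of these, 5 were lower with MB-3 (29.4%, beside 15.7% of all loci tested), or 3 without MB-3 replicate 8 or yucasin replicate 7, and their median was -0.51. Of 11 xylem markers 2 passed the filter, with a summed level of at most 4.082 CPM in either group, and XCP2 and VND6 had no count in any of the 6 libraries.

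With MB-3, 233 loci were more than 4-fold higher than with yucasin (1.22% of those tested) and 627 were more than 4-fold lower (3.29%), where both the p and the adjusted p had to be under 0.01. All adjusted p-values here come from the quasi-likelihood test of edgeR. Together these were 860 loci (4.52%). Without a fold threshold, 2306 loci were higher (12.1%) and 2993 lower (15.7%) at an adjusted p under 0.01, 5299 in all (27.8%). The shares of 12.1% and 15.7% are the background for every count of list members at any size below. The 3 MB-3 values did not overlap the 3 yucasin values in 10201 loci (53.6%). TMM and total-count scaling gave different splits, because total-count scaling moved the median difference of all loci by 0.37 on the log2 scale. Under it 472 loci were over 4-fold higher and 386 lower, so that 55% rather than 27.1% of the calls were higher with MB-3, and without a fold threshold 5460 were higher and 1580 lower (77.6% against 43.5% higher). None of the 860 loci took the opposite sign under any alternative, but their choice by size in the same libraries left little room for that. The share of the 860 calls that held was lowest with the compared libraries alone, at 70.1%, and highest with the replicate block, at 98%. Without yucasin replicate 7 the number over 4-fold higher was 136 and the number higher at any size 1367, and without replicate 6 of both groups the number lower at any size was 1990.

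Beside this, the comparisons with the control called 803 loci over 4-fold for MB-3 (4.22%), 2.25% of all being higher and 1.97% lower, and 2457 for yucasin (12.9%), 7.5% higher and 5.4% lower. At any size MB-3 differed from the control in 16.8% of loci (9.54% higher and 7.25% lower) and yucasin in 47.3% (24.7% higher and 22.6% lower). These share the control libraries with each other and the treated libraries with the direct comparison, so their values are set side by side for single genes and lists and are not independent of it.

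The largest differences were read from loci over 4-fold that carry a RefSeq gene symbol, whose higher group averaged 10 CPM or more and whose values did not overlap. Of the 12 most in favour of MB-3, several belong to the making of a new cell wall between daughter cells or to the growing cell surface. ENODL15, which encodes an early nodulin-like arabinogalactan protein, stood at 64.2, 20.9 and 33.8 CPM with MB-3 and at 4.58, 0 and 0.507 CPM with yucasin. The log2 difference was 4.46 (SE 0.56, adjusted p = 1.81e-06), and the control, at 105 to 126 CPM, lay above all 6 libraries. The receptor-like kinase gene IMK2 stood at 144, 43.3 and 68 CPM with MB-3 and at 11.9, 1.3 and 1.77 CPM with yucasin, a log2 difference of 4.05 (SE 0.50, adjusted p = 1.63e-06). SYP111 encodes KNOLLE, the syntaxin that fuses vesicles at the cell plate. Its levels were 58.4, 13.1 and 17.41 CPM with MB-3 and 4.95, 0.288 and 0.127 CPM with yucasin, the last 2 of which lie under 3 counts (log2 difference 3.95, SE 0.63, adjusted p = 3.26e-05). CSLD5, a cellulose synthase-like protein of the cell plate, differed by 3.89 (SE 0.59) on the log2 scale. In these 4 genes MB-3 replicate 6 was the highest of its group and yucasin replicate 6 the highest of its own, and the groups did not overlap. In a fit of the compared libraries alone, SYP111, PIP3, CYCB2;4, CDKB1;1, CDC20.1, HTA8, PIN4, PYK10, AO1, HDT4, MYB60, SMR1, KRP5 and PR2, all described here, missed the threshold, with adjusted p-values from 0.01 to 0.0613.

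The aquaporin gene PIP1C, for a water channel of the plasma membrane, followed the same order of groups, with 160, 43.5 and 60.7 CPM with MB-3, 17.2, 2.02 and 2.66 CPM with yucasin and 230 to 310 CPM in the control (log2 difference 3.55, SE 0.56). A second aquaporin gene, PIP3, differed by 2.64 (SE 0.42). AGP4 and AGP7, for arabinogalactan proteins of the cell surface, differed by 3.19 (SE 0.45) and 2.99 (SE 0.63), and the tubulin gene TUB1 by 2.65 (SE 0.37). NUDT12, which encodes a Nudix hydrolase, and CBSX5 completed the set with PR2. NUDT12 and CBSX5 had control levels close to those with MB-3, with differences from the control of 0.10 and 0.02 on the log2 scale for MB-3 and of -2.95 and -2.60 for yucasin.

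PR2, the gene for a pathogenesis-related beta-1,3-glucanase, had the largest difference of the 12, with the largest SE. It stood at 525, 74.5 and 52.2 CPM with MB-3, at 21.1, 0.865 and 3.93 CPM with yucasin and at 118, 50.2 and 54 CPM in the control, so that replicate 6 was highest in every group. The log2 difference of 4.61 (SE 0.98, adjusted p = 6.74e-04) became 2.88 without MB-3 replicate 6, with an adjusted p of 0.011.

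**Figure D1:**
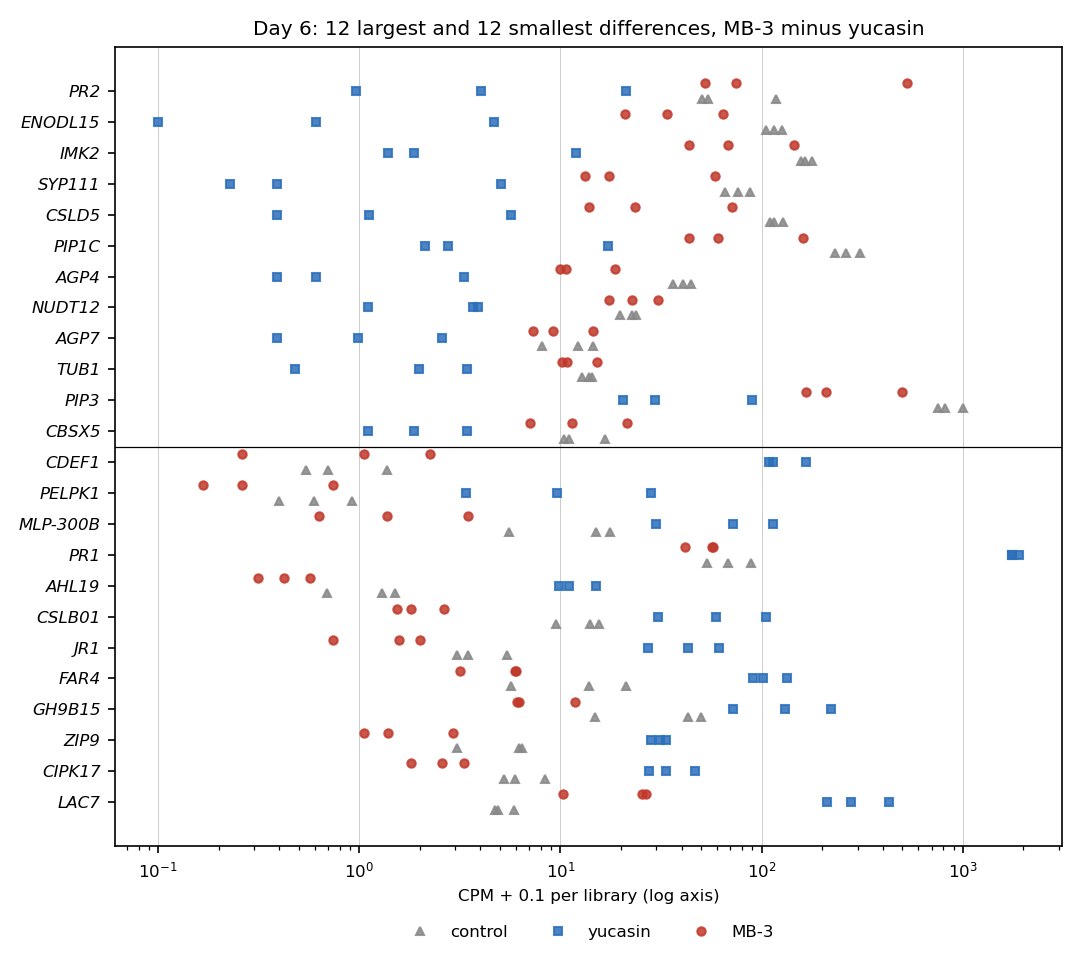
Level of the 12 genes most in favour of MB-3 (top) and of yucasin (bottom) in each Day 6 library, as CPM + 0.1 on a log axis; each point is 1 library, with red circles for MB-3, blue squares for yucasin and grey triangles for the control. The MB-3 and yucasin points do not overlap in any row, and the control lies with or above MB-3 in the top rows and mostly with or somewhat above MB-3 in the bottom rows, LAC7 being below both.

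The 12 genes most in favour of yucasin differed by more on the log2 scale. CDEF1, which encodes a cutinase that breaks down the cuticle, was close to its floor with MB-3, at 0.161, 0.956 and 2.14 CPM, and reached 166, 109 and 114 CPM with yucasin. The log2 difference was -6.63 (SE 0.43, adjusted p = 4.45e-09), and the control stood at 0.446 to 1.27 CPM, within the range of MB-3. PR1, the pathogenesis-related gene used as a marker of salicylic acid signalling, stood at 56.8, 41.5 and 57.5 CPM with MB-3 and at 1766, 1902 and 1753 CPM with yucasin (log2 difference -5.12, SE 0.41, adjusted p = 6.78e-09). Its control values of 53.2 to 88.5 CPM lay close to those with MB-3. PR1 and PR2, often named together, therefore differed between the inhibitors in opposite directions.

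Other genes of this set encode proteins of the cell wall, transporters and signalling proteins. LAC7, for a laccase of the kind that oxidises phenolics in walls, stood at 10.1, 26.6 and 25.4 CPM with MB-3 and at 212, 429 and 277 CPM with yucasin (log2 difference -3.86, SE 0.37), and both groups were above the control at 4.61 to 5.79 CPM. PELPK1, for a proline-rich wall protein, differed by -5.60 (SE 0.74) and the cellulose synthase-like gene CSLB01 by -5.01 (SE 0.55). MLP-300B and JR1, for jacalin-type lectin proteins, differed by -5.55 (SE 0.67) and -4.93 (SE 0.45). The zinc transporter gene ZIP9 (-4.07, SE 0.40), the protein kinase gene CIPK17 (-3.89, SE 0.35), the AT-hook gene AHL19 (-5.02, SE 0.44), the endoglucanase-like GH9B15 (-4.10, SE 0.53) and FAR4 (-4.41, SE 0.44) made up the rest. In 8 of these 12, among them MLP-300B, CSLB01 and GH9B15, MB-3 was below the control by more than 1 on the log2 scale while yucasin was above it, whereas LAC7 was above the control with both.

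Genes of the G2/M phase were higher with MB-3 than with yucasin. Of 183 such genes taken from the study's own list, 181 were tested, 55 were over 4-fold higher and none over 4-fold lower, beside 1.22% and 3.29% of all loci. At any size 80 were higher and 2 lower, and the median log2 difference was 1.57, against 0.01 over all loci. Against the control the median was -2.05 with MB-3 and -3.85 with yucasin. The mean level of the list, as log2(CPM + 1) over its genes, was 1.77 to 2.61 with MB-3, 0.91 to 1.57 with yucasin and 3.71 to 3.83 in the control, so that the inhibitor groups did not overlap and both lay below every control library. The 2 lower members were SKS1, for a multicopper oxidase-like protein, and AT3G03680. The count over 4-fold was 36 without yucasin replicate 7 and 59 without replicate 6 of both groups. At any size it was 51 without yucasin replicate 7 and 51 without yucasin replicate 8, and with only the libraries compared it was 32, of which 22 were over 4-fold. With the replicate block, 4 members were lower.

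Within the core regulators of this phase, 13 of 39 tested were higher and none lower, 9 of them over 4-fold. CYCB2;2, a B-type cyclin that activates the kinase driving entry into mitosis, stood at 9.17, 3.29 and 4.08 CPM with MB-3 and at 1.11, 0.577 and 0 CPM with yucasin (log2 difference 3.19, SE 0.51, adjusted p = 3.42e-05). All 6 values were below those of the control, 13.9 to 17.62 CPM. CDKB1;1, a plant-specific cyclin-dependent kinase, differed by 2.97 (SE 0.68, adjusted p = 0.00124), and CYCB2;4 by 3.28 (SE 0.69, adjusted p = 8.29e-04). MYB3R4, the transcriptional activator of G2/M genes, was at 10.8, 4.46 and 6.16 CPM with MB-3 and at 1.61, 1.73 and 1.14 CPM with yucasin, with 24.4 to 27.1 CPM in the control. Its log2 difference was 2.21 (SE 0.54, adjusted p = 0.00235), and it missed the threshold without MB-3 replicate 6 (1.89, adjusted p = 0.0119) and without yucasin replicate 8 (2.05, adjusted p = 0.0141). MYB3R1, its relative, showed no detectable difference, with a log2 value of 0.02 (SE 0.14, adjusted p = 0.925). CDC20.1, an activator of the ubiquitin ligase that ends mitosis, differed by 2.15 (adjusted p = 0.00563), but its ranges overlapped and it missed the threshold without MB-3 replicate 6 (1.38) and without yucasin replicates 7 (1.82) or 8 (1.64). CYCB1;1 (1.28, adjusted p = 0.152) and CDKB2;1 (1.67, adjusted p = 0.0338) did not pass the test. Without MB-3 replicate 6 the count of core members higher was 5, and without yucasin replicate 7 or 8 it was 6 or 7.

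Because many of these genes moved together, 300 bases before the annotated start of each gene were read from the RefSeq genome, assembly TAIR10.1, by locus ID. The letters searched, on both strands, were AACGG (on the other strand written CCGTT), the core of the mitosis-specific activator element that MYB3R factors bind, TTTCCCGC and TTTGGCGC, forms of the E2F site, TGTCTC (on the other strand written GAGACA), the core of the auxin response element, and TGACGT (on the other strand written ACGTCA), the core of the as-1 element. AACGG was held by 55.8% of the 181 G2/M regions, by 33.7% of the 169 S phase regions, by 40.1% of the 232 regions of loci over 4-fold higher with MB-3, by 17% of the 599 of loci over 4-fold lower and by 23.4% of all 27443 regions. TTTCCCGC was held by 14.8% of 169 S phase regions, 0.552% of G2/M regions and 0.689% of all regions, and TTTGGCGC by 10.1%, 0% and 0.419%. TGTCTC was held by 15.1% of the regions of loci over 4-fold higher, 10.7% of those over 4-fold lower and 13% of all, and TGACGT by 8.62%, 9.02% and 8.72%. The abscisic acid response element ACGTGT (on the other strand written ACACGT) was searched too and was held by 16.4%, 19.2% and 11.8%, as were the heat shock core GAANNTTC, in 32 of 232, 76 of 599 and 3152 of 27443 regions, and the telobox AAACCCTA (on the other strand written TAGGGTTT), at 4.31%, 2.67% and 5.21%. Among the 18585 regions of tested loci, from which the smaller sets were drawn, 25% held AACGG, 0.705% TTTCCCGC and 0.479% TTTGGCGC. There 12.7% held TGTCTC, 9.22% TGACGT, 12.6% ACGTGT, 11.6% GAANNTTC and 4.43% AAACCCTA. The sets overlap, as 55 of the 233 loci over 4-fold higher are on the G2/M list. These shares are descriptions without a test, and a region without a match says only that the letters are not in that window. The regions of 4 genes described here are shown with the letters of the first 5 motifs, on either strand, in capitals, to let the G2/M genes be set beside an S phase gene. CYCB2;2 (chr4:16901296-16901595, plus strand) held AACGG letters at 3 places, SYP111 (chr1:2711001-2711300, minus strand) and MYB3R4 (chr5:3679448-3679747, plus strand) held AACGG and TGTCTC letters at 1 place each, and ORC3 (chr5:5474066-5474365, plus strand), which encodes a subunit of the origin recognition complex, held TTTCCCGC and no AACGG.
CYCB2;2: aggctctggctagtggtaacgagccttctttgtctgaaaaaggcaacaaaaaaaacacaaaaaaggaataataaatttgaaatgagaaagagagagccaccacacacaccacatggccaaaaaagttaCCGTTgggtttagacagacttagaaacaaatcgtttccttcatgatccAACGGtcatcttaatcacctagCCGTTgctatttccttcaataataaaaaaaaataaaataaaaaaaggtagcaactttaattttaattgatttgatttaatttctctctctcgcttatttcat
SYP111: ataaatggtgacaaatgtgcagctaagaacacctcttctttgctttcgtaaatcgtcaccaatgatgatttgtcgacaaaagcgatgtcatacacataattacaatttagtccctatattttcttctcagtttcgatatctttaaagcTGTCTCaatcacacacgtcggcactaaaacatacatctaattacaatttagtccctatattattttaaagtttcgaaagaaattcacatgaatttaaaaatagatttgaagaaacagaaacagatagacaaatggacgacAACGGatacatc
MYB3R4: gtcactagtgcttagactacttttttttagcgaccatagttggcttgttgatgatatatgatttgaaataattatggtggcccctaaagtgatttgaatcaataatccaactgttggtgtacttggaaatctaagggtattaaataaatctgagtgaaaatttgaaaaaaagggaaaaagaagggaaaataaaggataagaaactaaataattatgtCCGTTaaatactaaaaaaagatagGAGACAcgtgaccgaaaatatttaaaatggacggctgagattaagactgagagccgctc
ORC3: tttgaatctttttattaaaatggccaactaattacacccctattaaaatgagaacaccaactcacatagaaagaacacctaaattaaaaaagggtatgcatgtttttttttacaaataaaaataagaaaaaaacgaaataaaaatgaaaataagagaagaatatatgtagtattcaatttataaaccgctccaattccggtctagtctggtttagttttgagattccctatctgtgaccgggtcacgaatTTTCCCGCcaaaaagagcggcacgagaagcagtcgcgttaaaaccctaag

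S phase genes showed smaller differences in the same direction. Of 172 listed by the study, 169 were tested, 97 were higher with MB-3 and 5 lower at any size, 15 and 1 of these over 4-fold, with a median log2 difference of 1.00. Against the control the median was -0.44 with MB-3 and -1.50 with yucasin. The mean level of the list was 3.39 to 3.56 with MB-3, 2.49 to 2.80 with yucasin and 3.81 to 3.89 in the control, 3 ranges that did not overlap. The member with the largest difference was PR2, described above, which is no gene of DNA replication. The 5 lower members, AT4G13690, WRKY48, WDL1, NRAMP3 and ERF2, encode, as far as they are annotated, transcription factors, a microtubule-associated protein and a metal transporter. The count over 4-fold higher was 7 without yucasin replicate 7, 23 without MB-3 replicate 7 and 28 without yucasin replicate 6, while the count at any size stayed between 72 and 99 in all alternatives but total-count scaling, which gave 128. Between 2 and 6 members were lower when a single library was left out.

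The replication machinery is shown by single genes. ORC3 stood at 14, 8.39 and 9.38 CPM with MB-3 and at 3.34, 1.87 and 2.53 CPM with yucasin, a log2 difference of 2.00 (SE 0.26, adjusted p = 3.48e-06), and the control at 10.2 to 11.7 CPM lay within the range of MB-3. RNR1, the large subunit of ribonucleotide reductase, which makes the building blocks of DNA, was at 84.2, 80.3 and 90.7 CPM with MB-3 and at 29.1, 22.5 and 27.7 CPM with yucasin (1.69, SE 0.19, adjusted p = 3.7e-07). Of the 12 core S phase regulators 9 were higher and none lower, a count that was the same under each of the 13 alternatives. Among them were PCNA1, the sliding clamp of DNA polymerase (1.77, SE 0.32), ORC1B (1.92, SE 0.34) and MCM3, a subunit of the replicative helicase (1.43, SE 0.31). Of 25 core G1/S regulators, 7 were higher and 2 lower. E2FA, an activator of S phase genes, stood at 11.1, 9.46 and 10.3 CPM with MB-3, at 3.22, 1.73 and 3.04 CPM with yucasin and at 9 to 10 CPM in the control (1.93, SE 0.20, adjusted p = 2.34e-07). RBR1, the retinoblastoma protein that holds E2F factors back, was also higher (1.02, SE 0.12). CYCD3;1, a D-type cyclin that responds to cytokinin, did not pass the test (0.20, SE 0.23, adjusted p = 0.501), and its differences from the control were -1.25 with MB-3 and -1.45 with yucasin. The 2 lower members were the cyclin-dependent kinase inhibitors KRP1 (-0.74, SE 0.19) and KRP5 (-0.95, SE 0.24), and neither passed with total-count scaling or without MB-3 replicate 6. KRP1 also missed the threshold without each other library except yucasin replicate 7, and KRP5 without yucasin replicate 7 or 8. SMR1, an inhibitor of another family, was lower by a small margin (-1.06, SE 0.32, adjusted p = 0.00945), with overlapping ranges, and missed the threshold without MB-3 replicates 7 or 8 or yucasin replicates 7 or 8.

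Some genes for histones and other chromatin proteins were higher with MB-3 too. Of 34 histone genes tested, 15 were higher and 4 lower, or 2 lower without MB-3 replicate 6 or 8 or yucasin replicate 7. The H3 gene AT5G10390 (2.25, SE 0.34) and HTA8, of the H2A family (2.1, SE 0.33), were over 4-fold higher. The H3 genes AT4G40030, AT4G40040 and AT5G10980, which encode the replication-independent form H3.3, were among the 4 lower, at -0.77, -0.50 and -0.54. No count of the higher and lower genes by whether their histones are tied to replication was made. Histone genes are near-identical copies, so the values of single copies are uncertain. Of 26 genes for Polycomb proteins and DNA methylation, 6 were higher (23.1%, beside 12.1% of all loci). CMT3, the methyltransferase for CHG sites, stood at 40.7, 27.4 and 34 CPM with MB-3 and at 9.4, 6.34 and 10 CPM with yucasin (1.97, SE 0.21, adjusted p = 2.49e-07), and MET1, the methyltransferase for CG sites, differed by 1.5 (SE 0.24). MEA, a Polycomb gene known for its imprinting in the endosperm, was the lower member, at 0.805, 1.91 and 0.737 CPM against 9.52, 17.7 and 8.74 CPM (-3.38, SE 0.38), and the control was at or under 0.212 CPM. All 17 DNA damage response genes tested had positive differences and 9 passed, among them RNR1 and GMI1 (1.33, SE 0.14), with 5 passing without yucasin replicate 7.

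**Figure D2:**
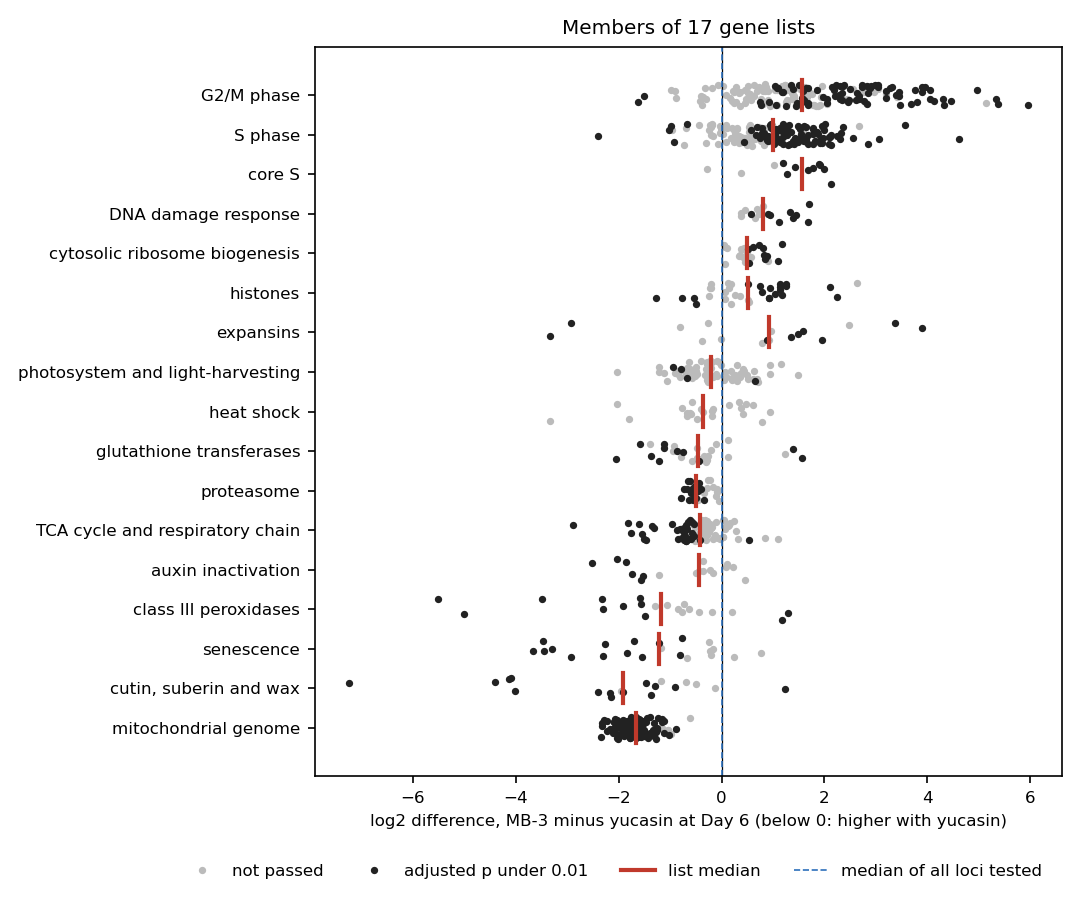
Log2 difference, MB-3 minus yucasin at Day 6, of each tested member of 17 gene lists; black points passed an adjusted p of 0.01, grey points did not, the red bar is the median of the list and the dashed line the median of all loci, 0.01. The cell-cycle lists lie to the right with medians of 1.57 (G2/M phase) and 1.00 (S phase), and the lists for cutin, suberin and wax and for the mitochondrial genome lie to the left at -1.92 and -1.66.

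Protein synthesis and breakdown differed by less, in opposite directions. The 25 tested genes of ribosome biogenesis all had positive differences, with a median of 0.50, and 10 were higher, 6 without yucasin replicate 7. FIB2, a fibrillarin that methylates ribosomal RNA, stood at 82.2, 98.3 and 105 CPM with MB-3 and at 50.1, 34 and 42.3 CPM with yucasin (1.17, SE 0.23, adjusted p = 3.22e-04). NRPA1, the largest subunit of RNA polymerase I, differed by 1.09 (SE 0.16). The 29 tested genes of the proteasome all had negative differences, with a median of -0.49, and 19 were lower. RPT2A, an ATPase subunit of its regulatory particle, stood at 174, 177 and 166 CPM with MB-3, at 284, 339 and 266 CPM with yucasin and at 169 to 184 CPM in the control (-0.78, SE 0.11, adjusted p = 8.4e-06). Against the control the median of the proteasome list was -0.10 with MB-3 and 0.35 with yucasin. With total-count scaling the proteasome median was -0.12 and 1 member passed, and the count of 19 was 10 without MB-3 replicate 7 or 8 or yucasin replicate 7 and 8 without replicate 6 of both groups.

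Counted transcripts of the mitochondrial genome were lower with MB-3. All 121 were below 0 on the log2 scale, with a median of -1.66, 115 passed and 23 were over 4-fold lower. Together they took 1.19%, 0.78% and 0.70% of the counts with MB-3, 1.93%, 2.11% and 2.08% with yucasin and 0.31% to 0.32% in the control, ranges that did not overlap. ATMG00640 stood at 391.9, 345.9 and 326.1 CPM with MB-3 and at 1415, 1257 and 1272 CPM with yucasin (-1.89, SE 0.20, adjusted p = 2.34e-07), with a mean of 156.9 CPM in the control. The count over 4-fold was 9 without MB-3 replicate 8 and 15 without yucasin replicate 7, and none was over 4-fold with total-count scaling, where 107 passed at any size. The libraries were made with a kit for mRNA, and how evenly it captures transcripts of the organelle genomes was not tested. Of the 18836 nuclear loci tested, 233 were over 4-fold higher and 603 lower. Of the 86 plastid loci, 14 were lower at any size (16.3%, beside 15.7% of all loci) and 1 over 4-fold. Without MB-3 replicate 6, 31 plastid loci were lower, while without MB-3 replicate 7 or 8 the number was 5, without yucasin replicate 6 it was 7 and without yucasin replicate 7 it was 9.

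Nuclear genes for the TCA cycle and the respiratory chain had a median of -0.41, with 32 of 92 lower and 1, AT5G23250, higher (21 lower without MB-3 replicate 8, 18 without replicate 6 of both groups, and 6 higher and 9 lower with total-count scaling). FUM2, the cytosolic fumarase of leaves, was the member over 4-fold lower, at 1.29, 1.91 and 1.34 CPM with MB-3 and 9.89, 14.1 and 9.88 CPM with yucasin (-2.89, SE 0.30, adjusted p = 2.16e-07). AT2G07698 and AT2G07785, 2 of the next largest differences (-1.82 and -1.77), lie in the copy of mitochondrial DNA inserted in chromosome 2, so their values are uncertain. AOX1B, an alternative oxidase that bypasses part of the respiratory chain, differed by -3.45 (SE 0.40), and its relative AOX1A by -1.16 (SE 0.23).

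Genes of the cuticle and of suberin, the waxy polymers that seal the surfaces of shoots and of roots or wounds, were lower with MB-3. Of 28 listed, 19 passed the filter, 13 were lower, 8 of them over 4-fold, and 1 was higher. The median was -1.92, and against the control it was -0.16 with MB-3 and 2.46 with yucasin. FAR4, a fatty acyl reductase that makes suberin alcohols, stood at 3.06, 5.84 and 5.89 CPM with MB-3, at 134, 90.5 and 102 CPM with yucasin and at 5.58 to 21.1 CPM in the control. ASFT, the transferase that adds ferulate to suberin, had 0, 1 and 0 counts with MB-3 and 33, 99 and 19 with yucasin, at least 20.7-fold lower with MB-3 when the floor of 3 counts per library is taken for MB-3. CER1, for the making of wax alkanes, was at 0.322, 0.425 and 0.201 CPM against 3.96, 7.35 and 5.19 CPM (-4.14, SE 0.48, adjusted p = 2.09e-06). Its MB-3 values lie near the floor of 3 counts, so the size of this difference is uncertain. CUT1, a condensing enzyme of very long chain fatty acids, differed by -2.40 (SE 0.37). GPAT6, an acyltransferase of floral cutin, was the higher member (1.23, adjusted p = 0.00268), and it passed in none of the fits without MB-3 replicates 7 or 8 or yucasin replicates 6 or 7. The number lower was 8 without replicate 6 of both groups.

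Some markers of epidermal cells differed in the same direction. Guard cell markers had a summed level of 160.5 to 205.6 CPM with MB-3, 513.6 to 672.1 CPM with yucasin and 149.5 to 210.4 CPM in the control. All 8 tested were below 0 on the log2 scale (median -1.44) and 4 were lower, none of them at 0 in any library. FAMA, the factor that specifies guard cells, stood at 3.54, 9.24 and 6.29 CPM with MB-3, 20.2, 43.7 and 35.1 CPM with yucasin and 2.16 to 3.06 CPM in the control (-2.34, SE 0.33, adjusted p = 8.66e-06). HT1, a kinase of guard cells, differed by -2.62 (SE 0.34), and TGG1, the myrosinase that made up most of the sum, by -1.84 (SE 0.30). MYB60 (-2.05, SE 0.46) missed the threshold without yucasin replicate 6 (-1.34, adjusted p = 0.0207). Of 10 epidermal markers in the files, 4 passed the filter, 2 of them, FDH (AT2G26250) and CUT1, were lower, and PDF1 had no count in any of the 6 libraries. CUT1 belongs to the list for cutin, suberin and wax as well. LTP1, a lipid transfer protein, was at 15.9 to 55.1 CPM with MB-3 and 14.2 to 17.9 CPM with yucasin and did not pass (0.96, SE 0.41, adjusted p = 0.0604), nor did TTG1, at 21.8 to 27.4 against 25.2 to 30.3 CPM (adjusted p = 0.265). Their summed level was 50.7 to 99.65 CPM with MB-3 and 91.28 to 158.4 CPM with yucasin, ranges that overlapped. The part of these cell types in the differences for cutin, suberin and wax was not tested.

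**Figure D3:**
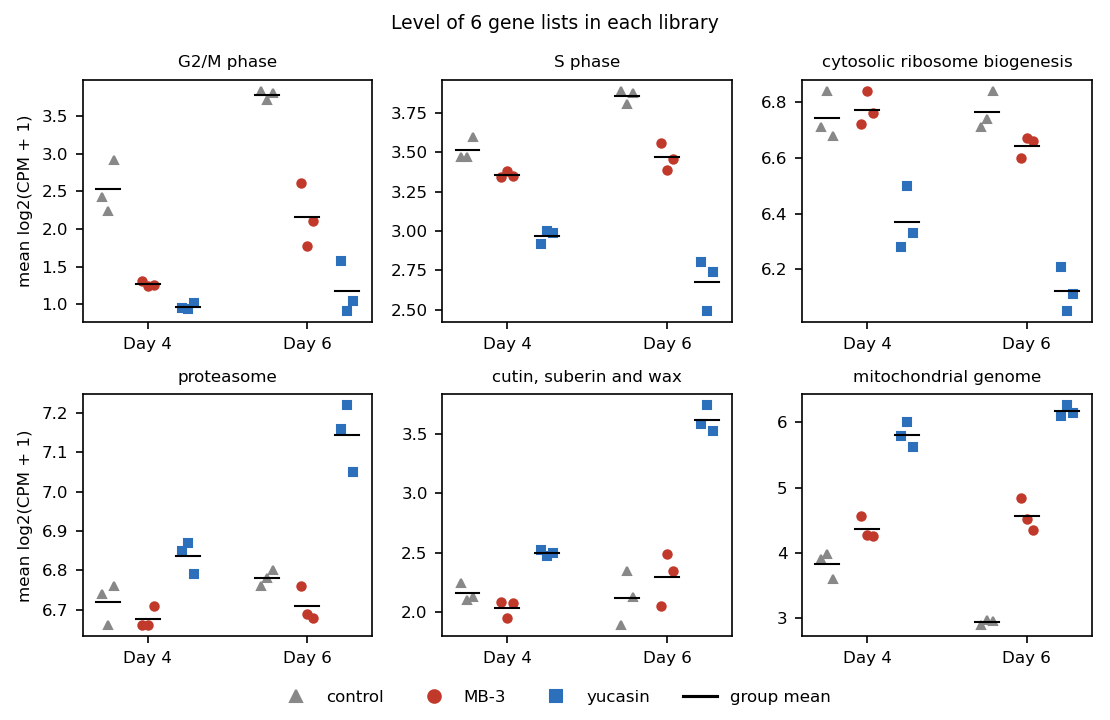
Mean log2(CPM + 1) over the tested genes of 6 lists in each library at Days 4 and 6; points are libraries (grey triangles control, red circles MB-3, blue squares yucasin) and black bars group means. At Day 6 the G2/M list stood at 1.77 to 2.61 with MB-3, 0.91 to 1.57 with yucasin and 3.71 to 3.83 in the control, and the mitochondrial genome list had the opposite order, at 4.35 to 4.84, 6.10 to 6.26 and 2.89 to 2.98.

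Genes tied to senescence and cell death were lower with MB-3. Of 21 tested, 13 were lower, 7 of them over 4-fold, and none higher, with 8 lower without MB-3 replicate 8. BFN1, a nuclease of senescing and dying cells, stood at 9.82, 5.84 and 6.23 CPM with MB-3, at 133, 56.6 and 80.7 CPM with yucasin and at 22.1 to 47 CPM in the control (-3.67, SE 0.43, adjusted p = 9.18e-07). All MB-3 values were below the control range and all yucasin values above it. RNS3, a ribonuclease, differed by -3.47 (SE 0.66) and SAG29, a sugar transporter of senescing leaves, by -3.30 (SE 0.58). Chlorophyll breakdown, with 3 of 9 members lower, included NYC1, the chlorophyll b reductase (-1.70, SE 0.20). Nuclear photosystem genes, by contrast, had 1 of 71 higher (1.41%, beside 12.1% of all loci) and 3 lower (4.23%, beside 15.7%), both shares below those of all loci. Their median of -0.20 was 0.16 with total-count scaling. When a single library was left out, 0 to 4 of them were lower.

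Wall enzymes differed in either direction. Of 20 class III peroxidases tested, which build or loosen walls with hydrogen peroxide, 9 were lower, 5 of them over 4-fold, and 2 were higher, none without yucasin replicate 7 or 8. AT5G64110 stood at 5.15, 16.1 and 17.55 CPM with MB-3 and at 284, 497 and 505 CPM with yucasin (-5.0, SE 0.39, adjusted p = 6e-09), and the control at 2.75 to 6.5 CPM was lower than yucasin in every library. The related and adjacent AT5G64100 differed by -5.51 (SE 0.55). Of 22 xyloglucan endotransglucosylases, which cut and rejoin wall polymers, 8 were lower and none higher, or 2 higher with the replicate block and 2 without yucasin replicate 6. XTH11 stood at 25.6, 24.6 and 29.2 CPM with MB-3 and at 244, 184 and 246 CPM with yucasin (-3.08, SE 0.38). Of 17 expansins, which loosen walls during growth, 7 were higher and 2 lower. EXPB3 was at 148, 142 and 170 CPM with MB-3 against 69.6, 27.7 and 56 CPM with yucasin (1.58, SE 0.32), below the control at 329 to 346 CPM, whereas EXPB2 went the other way, at 23.2, 16.1 and 30.7 CPM against 371, 111 and 226 CPM (-3.33, SE 0.56).

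Among 24 genes of salicylic acid signalling and defence, 8 were lower and 3 higher. Beside PR1, WRKY40, a factor induced by pathogens and wounds, stood at 20.12, 13.7 and 21.5 CPM with MB-3 and at 54.7, 73.8 and 89.9 CPM with yucasin (-1.98, SE 0.19, adjusted p = 1.03e-07). CBP60G and SARD1, which switch on salicylic acid synthesis, differed by -1.60 (SE 0.29) and -1.58. The 3 higher, led by PR2, were 5 with the replicate block and 1 in each fit without a single library. Beta-glucosidases that activate defence compounds had 7 of 15 members lower and 2 higher, or 1 to 3 higher when a single library was left out. PYK10, the main protein of the endoplasmic reticulum bodies, stood at 397, 1965 and 1476 CPM with MB-3, at 3933, 7628 and 6185 CPM with yucasin and at 93.8 to 467.8 CPM in the control (-2.21, SE 0.51, adjusted p = 0.00131). Replicate 6 was the lowest of each group.

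Auxin synthesis genes themselves were hardly detected. Of 14 genes of the TAA1 and YUCCA families, 1 passed the filter, TAR2, which did not pass the test (1.76, adjusted p = 0.019). In the 6 libraries YUC1 had at most 2 counts, YUC8 at most 1, TAA1 at most 1 and YUC4 at most 5, so a difference in these genes was not detectable at this depth, and the inhibition of the enzymes cannot be read from mRNA. Of 19 genes of other routes to auxin, 6 were lower and 1 higher. NIT3, a nitrilase, stood at 96.4, 200 and 164 CPM with MB-3 and at 385, 413 and 323 CPM with yucasin (-1.28, SE 0.25, adjusted p = 3.01e-04), and AO1, an aldehyde oxidase, at 82.7, 83.9 and 76.2 against 112, 222 and 149 CPM (-0.99, SE 0.19), both far above its control of 7.88 to 11.4 CPM. CYP79B3, which turns tryptophan into indole-3-acetaldoxime, was the higher one (1.08, SE 0.27, adjusted p = 0.00266), and it missed the threshold without MB-3 replicate 6 or yucasin replicate 7 or 8. Its relative CYP79B2 did not pass (0.54, adjusted p = 0.0562), although its ranges did not overlap, and it passed with total-count scaling (0.91, adjusted p = 0.00237).

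Some of the genes that inactivate auxin were lower with MB-3. Of 17 tested, 6 were lower (35.3%, beside 15.7% of all loci), none was higher and 11 did not pass, and 5 of the 6 belong to the GH3 family, whose enzymes join auxin to amino acids and are induced by auxin. GH3.6 stood at 26.1, 67.7 and 82.8 CPM with MB-3, at 204, 264 and 265 CPM with yucasin and at 21.4 to 36.2 CPM in the control (-2.04, SE 0.31, adjusted p = 1.58e-05). GH3.5 was at 159, 182 and 217 CPM against 667, 563 and 640 CPM (-1.74, SE 0.26), and GH3.17 (-1.86, SE 0.35), GH3.2 (-1.53) and GH3.4 (-1.57) went the same way. GH3.3, the most abundant of them, did not pass (-0.37, adjusted p = 0.182), nor did GH3.1 (-0.43). GH3.5 and GH3.6 were above the control with MB-3 as well, by 1.02 and 0.97 on the log2 scale, and by 2.77 and 3.01 with yucasin. The number lower was 6 or 7 in all alternatives, and 1 member was higher with the replicate block and without MB-3 replicate 6, and 2 with total-count scaling. The upstream region of GH3.6 held no TGTCTC within 300 bases, and this says nothing of more distant sites. Of the 17 regions, 35.3% held TGTCTC, beside 13% of all, and 35.3% held TGACGT, beside 8.72% of all.

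Auxin signalling genes did not move as a group. Of 22 Aux/IAA repressors, 6 were lower and 2 higher, and the median of -0.14 was 0.23 with total-count scaling. None was higher without MB-3 replicate 8 or yucasin replicate 7. IAA17 stood at 0.644, 0.319 and 0.402 CPM with MB-3 and at 5.94, 4.18 and 8.99 CPM with yucasin (-3.86, SE 0.57, adjusted p = 2.53e-05). The MB-3 values of IAA17 lie near the floor of 3 counts, so the size of its difference is uncertain. IAA14, a repressor in lateral root founder cells, stood at 2.09, 4.78 and 3.75 against 14, 13.6 and 11.2 CPM (-1.82, SE 0.33). IAA3 was lower (-1.65, adjusted p = 0.0025). It missed the threshold with total-count scaling (-1.28, adjusted p = 0.011), without MB-3 replicate 6 or 8, without yucasin replicate 8 and without replicate 6 of both groups. IAA18 did not pass (-0.35, adjusted p = 0.0857). Of 15 auxin response factors, 4 were higher (26.7%, beside 12.1% of all loci) and 2 lower (13.3%, beside 15.7%). ARF19, an activator, was higher (1.11, SE 0.20) and ARF16, a repressor class member, lower (-1.64, SE 0.21), while ARF7, the closest relative of ARF19, showed 0.09 (adjusted p = 0.696). LBD29, a target of ARF7 and ARF19 in roots, stood at 2.25, 3.72 and 4.96 CPM with MB-3 and at 33, 31.3 and 39.3 CPM with yucasin (-3.17, SE 0.36, adjusted p = 1.48e-06). LBD16 did not pass (0.44, adjusted p = 0.0931), except with total-count scaling (0.81, adjusted p = 0.00432). PIN4, an auxin exporter, was higher with MB-3 (2.22, SE 0.45) and PILS5, an auxin carrier of the endoplasmic reticulum, lower (-1.10, SE 0.19).

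Of 3 PLETHORA factors tested, which act in root stem cells and in regeneration, 2 were higher with MB-3 and none was lower. PLT3 stood at 23.3, 16.6 and 22.9 CPM with MB-3, at 6.56, 3.03 and 2.91 CPM with yucasin and at 51.6 to 57.8 CPM in the control (2.31, SE 0.29, adjusted p = 1.9e-06). PLT7 was at 8.21, 12.6 and 12.5 CPM with MB-3 and at 3.22, 3.46 and 4.56 CPM with yucasin (1.58, SE 0.21), and its control range of 5.68 to 6.39 CPM lay between the groups. PLT5 was low with either inhibitor, at 0.161 to 0.85 and 0.507 to 1.48 CPM against 7.98 to 9.89 CPM in the control, and did not pass the direct test (-0.77, adjusted p = 0.292). AT1G36060, an AP2/ERF gene of the wound and regeneration list, was higher (2.25, SE 0.35), while that list as a whole had 2 higher and 1 lower of 11. Cytokinin oxidases, which break cytokinin down, had 1 member higher and 2 lower of 7. CKX2 stood at 2.74, 5.1 and 5.36 CPM with MB-3 and at 23.1, 36.2 and 26 CPM with yucasin (-2.63, SE 0.30), and CKX3, at 86.1, 96.8 and 128 CPM against 54.4, 36 and 55.5 CPM, was the higher one (1.09, SE 0.17).

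Histone acetyltransferase genes, whose products include the target of MB-3, had a small median difference with members on both sides of 0. Of 11 tested, 2 were higher and 1 lower, with a median of 0.10. HAG2 stood at 25.8, 20.8 and 28 CPM with MB-3 and at 12.7, 13.3 and 14.7 CPM with yucasin (0.88, SE 0.13, adjusted p = 1.91e-05), and HAG1 differed by 0.55 (SE 0.14, adjusted p = 0.00293). HAF1, of the TAF1 class, was lower (-0.79, SE 0.18, adjusted p = 0.00133). HAG3, the Elongator subunit, did not pass (0.37, adjusted p = 0.0906), except with total-count scaling (0.74, adjusted p = 7.15e-04). With MB-3 none of HAG1, HAG2, HAG3 and HAF1 differed from the control by more than 0.16 on the log2 scale. HAF1 missed the threshold with total-count scaling (-0.42) and without yucasin replicate 7, and HAG1 without yucasin replicate 7 or 8. Of 17 histone deacetylase genes 4 were higher, among them HDT2 (0.72, SE 0.14) and HDT4 (0.87, SE 0.20, not passed without yucasin replicate 7), and the count was 1 without yucasin replicate 7 and 2 without MB-3 replicate 8 or yucasin replicate 8.

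Stress lists differed in how many members passed. Of 30 glutathione transferases, which detoxify foreign compounds, 9 were lower (30%, beside 15.7% of all loci) and 2 higher, with a median of -0.45, and 4 to 5 were lower without MB-3 replicate 6 or 8 or yucasin replicate 7. GSTU3 stood at 26.2, 36.6 and 35.5 CPM with MB-3 and at 110, 161 and 139 CPM with yucasin (-2.05, SE 0.24). Against the control the median of that list was 0.85 with MB-3 and 1.57 with yucasin. Of 22 genes of the response to foreign compounds 6 were lower, or 27.3% (3 without MB-3 replicate 7 or 8 or yucasin replicate 7 or 8). Of 25 genes of the abscisic acid response 5 were lower (20%, near the 15.7% of all loci), or 8 with the replicate block and 2 without MB-3 replicate 8. Among the lists with few calls in either direction were those for sulfur limitation (3 higher and 1 lower of 22, or 3 lower with the block), indole glucosinolates and camalexin (2 and 2 of 24), jasmonate (2 and 3 of 26, or 6 lower with the block), ethylene (1 and 3 of 17), phosphate starvation (1 and 2 of 18, or 4 lower with the block) and sugar starvation (1 and 3 of 18). Each of these counts stayed between 0 and 4 when a single library was left out. Of 23 heat shock genes and of 9 type-A response regulators, which restrain cytokinin signalling, edgeR called none, while 3 lower heat shock genes and 2 higher and 3 lower response regulators had an unadjusted p under 0.05, and DESeq2 called 1 lower gene in each list. The replicate block gave 3 lower heat shock genes and 1 lower response regulator, and total-count scaling 1 and 3 higher. Single genes differed by more, such as PHT1;1, the phosphate transporter, at 0.966, 7.97 and 7.03 CPM with MB-3 and 44.3, 50.9 and 38.8 CPM with yucasin (-2.97, SE 0.37, adjusted p = 1.68e-06).

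The direct comparison could be read 2 days earlier, in the Day 4 libraries of the same treatments, 3 per group. There 81 loci were over 4-fold higher with MB-3 (0.425%) and 153 lower (0.803%), 1.23% in all, and at any size 7.18% were called, 2.81% higher and 4.36% lower. Of the 233 loci over 4-fold higher at Day 6, 219 were above 0 at Day 4 and 54 were called higher, with a median of 1.34 against 2.55 at Day 6. Of the 627 over 4-fold lower, 583 were below 0 at Day 4 and 226 were called lower, with a median of -1.50 against -2.62, and none of the 860 was called in the opposite direction. The 860 were chosen at Day 6, so their Day 6 medians are descriptions, whereas the Day 4 values come from other libraries, replicates 4 to 6. Replicate number 6 occurs on both days, and both days were fitted together. Whether same-numbered libraries of the 2 days deviated together was not tested. CDEF1 differed by -5.15, PR1 by -3.36 and ENODL15 by 4.21 at Day 4. The median of the G2/M list was 0.92 and that of the S phase list 0.45 at Day 4, and that of the mitochondrial genome -1.58.

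The test of the change between the days called 36 loci over 4-fold (0.189%), 34 of them lower at Day 6 relative to Day 4 (0.179%) and 2 higher (0.0105%), or 90 without a fold threshold (0.473%), of which 15 were higher (0.0788%) and 75 lower (0.394%). With a block for the replicate number it called 100 over 4-fold, with DESeq2 90 and without MB-3 replicate 8 it called 8. The Day 4 libraries were replicates 4 to 6 and the Day 6 libraries replicates 6 to 8. An effect of the day on the difference between inhibitors and one of the replicate set therefore cannot be told apart.

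**Figure D4:**
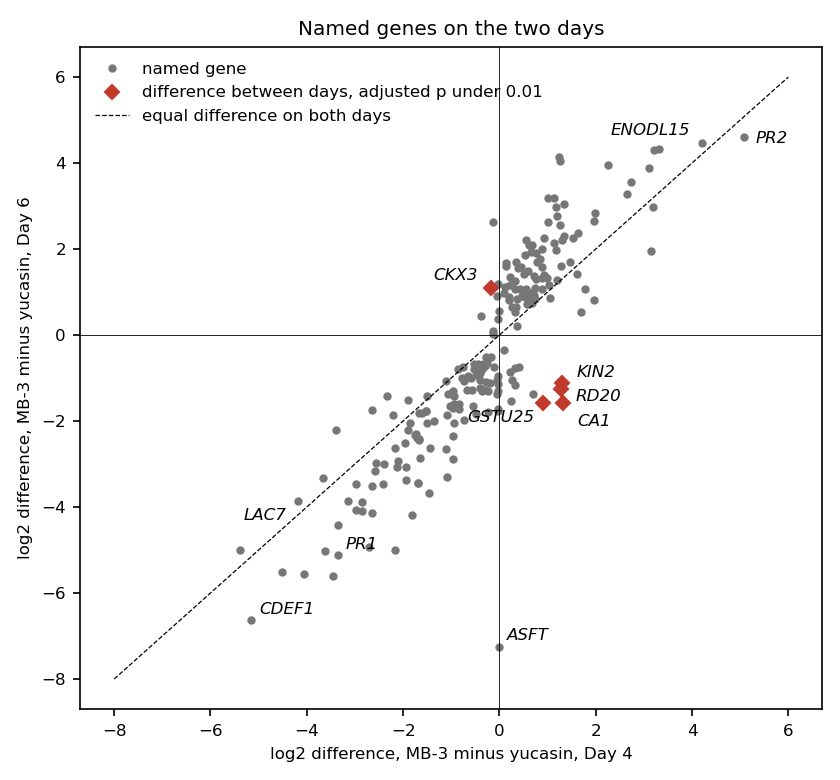
Log2 difference, MB-3 minus yucasin, at Day 4 (horizontal) and Day 6 (vertical) for each named gene; red diamonds passed an adjusted p of 0.01 in the test of the change between days, grey points did not, and the dashed line marks equal differences. Most genes lie on the same side of 0 on both days, and CKX3, GSTU25, RD20, KIN2 and CA1 passed the test of the change. ASFT, with at most 1 count in any MB-3 library at Day 6, is placed by a fitted value that is no bound.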

How the data were processed

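The data were mRNA sequencing libraries of cultured protoplasts. Per the labels and the study's methods, the authors made stranded mRNA libraries, mapped the reads to TAIR10 with Bowtie 0.12.9 and deposited raw counts per splice variant, with a read shared by variants counted for each. The study's methods describe the mapped reads as unique, so near-identical genes are uncertain. Here the counts of the lowest-numbered variant of each locus were used. These summed to 103.2% to 104.5% of the mapped reads listed, so some reads were counted at more than 1 locus. The 43 loci without variant 1 were taken by their lowest variant.

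Libraries were grouped by their labels. The 26 libraries of 8 groups were fitted together in edgeR 4.0.16 (R 4.3.3, limma 3.58.1) with TMM scaling, a filter on low counts and the quasi-likelihood test with Benjamini-Hochberg adjustment over 19043 loci. A gene was called over 4-fold at an absolute log2 difference above 2 with p and adjusted p under 0.01, the study's thresholds, and at any size at an adjusted p under 0.01. The labels do not say whether replicates were separate cultures, although the study's methods call them biological. Replicate numbers are shared between the groups, and same-numbered MB-3 and yucasin libraries deviated together (r = 0.346, 0.336 and 0.379 over 13957 loci), so a fit with the number as a block was made. DESeq2 1.42.0, total-count scaling, no filter, the compared libraries or nuclear loci alone, and leaving out each library were tried as well. Leaving out replicate 6 of both groups was chosen after the data were seen. Scripts were tested on simulated data.

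Genes were named by rank (the 12 largest and 12 smallest differences among 179 eligible loci), up to 4 called members of each list with the largest sizes of difference and at least 5 CPM in the higher group, and single genes of the study, 220 in all, of which 216 were tested. Others were named after their values were seen, because a small count rested on them or to show relatives of a named gene. The members, lists and rules were chosen with earlier results of these data known. Counts and floors cover counting error only. The upstream windows were matched by locus ID to RefSeq, and no coordinates were carried over between builds.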

Additional observations from a re-analysis of the deposited data

Results flagged for a closer look

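For 5 named genes, the difference between MB-3 and yucasin was not the same in the Day 4 and Day 6 libraries, by an interaction term in edgeR's quasi-likelihood test adjusted over all loci. The Day 4 libraries were replicates 4 to 6 and the Day 6 libraries replicates 6 to 8, so day and replicate set cannot be told apart. Named genes were chosen largely by the size of their Day 6 difference in these same libraries. CKX3, a cytokinin oxidase, differed by 1.09 on the log2 scale at Day 6 and by -0.17 at Day 4, a change of 1.26 (SE 0.24, adjusted p = 0.00755). The glutathione transferase gene GSTU25 went from 0.90 at Day 4 to -1.59 at Day 6, a change of -2.48 (SE 0.41, adjusted p = 0.00277). RD20 and KIN2, genes induced by drought and abscisic acid, changed by -2.52 (SE 0.38, adjusted p = 0.00174) and -2.42 (SE 0.44, adjusted p = 0.00567), from 1.28 and 1.3 at Day 4 to -1.25 and -1.12 at Day 6. CA1, a chloroplast carbonic anhydrase, changed by -2.9 (SE 0.49, adjusted p = 0.00308), from 1.32 to -1.58. Each of these 5 changes kept its sign in all 13 alternatives, but none passed the threshold in all of them. KIN2 missed it in 5, namely without MB-3 replicate 7 (-2.36, adjusted p = 0.0151) or 8 (-2.19, adjusted p = 0.0225), without yucasin replicate 7 (adjusted p = 0.0126) or 8 (adjusted p = 0.0106) and without replicate 6 of both groups (adjusted p = 0.0162), and its Day 6 difference missed it in 7. CKX3 missed it in 4, with adjusted p = 0.0212 from only the libraries compared and 0.011 to 0.0229 without MB-3 replicate 8 or yucasin replicate 6 or 7. Without MB-3 replicate 8, GSTU25 (-2.21, adjusted p = 0.0156), RD20 (-2.33, adjusted p = 0.0122) and CA1 (-2.78, adjusted p = 0.0161) missed it as well, as did the Day 6 difference of RD20 (-1.06, adjusted p = 0.011), and CA1 missed it without MB-3 replicate 6 (-2.81, adjusted p = 0.0116).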

How the results depend on the processing

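No locus over 4-fold took the opposite sign in any alternative, but the choice of these loci by size in the same libraries left little room for that. Of the 216 named genes tested, 139 kept their call under all 13 and 77 lost or gained one in at least 1. With total-count scaling 472 loci were over 4-fold higher and 386 lower, and 5460 and 1580 at any size. With the compared libraries alone 134 were over 4-fold higher, and the change between days was called over 4-fold in 22. That number was 90 with DESeq2 and 100 with the replicate block. When a single library was left out, the count over 4-fold higher ranged from 136 to 344, over 4-fold lower from 550 to 621, higher at any size from 1367 to 2197, lower at any size from 2129 to 2576, and the change between days from 8 to 36. Without replicate 6 of both groups, 1990 were lower at any size and the change between days was called in 20. The cause of these shifts was not tested. With the replicate block, 252 loci were over 4-fold higher and 647 lower, and among the named genes only ABI5 lost its call (1.06, adjusted p = 0.0159). Depth limits genes near 3 counts, such as the YUCCA genes.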
